A study of Homo sapiens with 24 samples.

Results

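A set of 9 genes of the TGF-beta and BMP response were followed across body sites and treatment in a human leukaemia grown in mice, the OCI-AML3 line of acute myeloid origin. The members were chosen by symbol in the platform's gene listing: the inhibitory SMADs SMAD6 and SMAD7, the signalling SMAD3, the inhibitors of differentiation ID1, ID2 and ID3, the corepressors TGIF1 and SKIL, and the ligand TGFB1. These 9 genes have 19 of the array's 47231 probes. Engineered cells with luciferase and GFP were injected into NSG mice, which lack T, B and NK cells of their own, and were sorted by GFP and human CD45 from peripheral blood, spleen and femoral bone marrow of each animal. The 24 arrays fall into 9 groups of site and treatment: 3 untreated control mice (numbers 4, 5 and 6, harvested on day 42), 3 mice after 24 h (numbers 1, 2 and 3, day 41) and 2 mice after 72 h (numbers 8 and 9, day 43). Treated mice received the CXCR4 inhibitor LY2510924 from day 40, daily under the skin at 2.5 mg/kg, and the sample characteristics spell it LY2510294. Harvest day and treatment group cannot be told apart, no vehicle is named for the controls, and every group rests on 1 cell line.

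TGF-beta ligands bind receptors that phosphorylate SMAD2 and SMAD3, while BMP ligands act through SMAD1, SMAD5 and SMAD9. Both kinds join SMAD4 and enter the nucleus, where they switch target genes on or off. SMAD6 and SMAD7 are induced by the pathway and block it at the receptors, SMAD6 mainly on the BMP side and SMAD7 on both. ID proteins lack a DNA-binding region and hold E proteins such as TCF12 away from DNA, and they are well known as BMP targets. TGIF1 and SKIL are nuclear repressors of SMAD activity. In the marrow TGF-beta is known for keeping blood stem cells quiet, and CXCR4, the receptor for the chemokine CXCL12, for holding blood-forming and leukaemic cells in place.

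The promoters of the 3 members that passed a test between sites over all mice are shown for the letters that SMAD proteins are known to bind. Each is the 250 bases before the gene's start in RefSeq (GRCh38.p14, plus strand), at chr15:66701986-66702235 for SMAD6, chr2:8681806-8682055 for ID2 and chr20:31605039-31605288 for ID1. Capitals mark matches, on either strand, to the palindromic SMAD element GTCTAGAC, to the SMAD box CAGAC, which the palindrome does not contain, and to the GC-rich motif GGCGC.
SMAD6: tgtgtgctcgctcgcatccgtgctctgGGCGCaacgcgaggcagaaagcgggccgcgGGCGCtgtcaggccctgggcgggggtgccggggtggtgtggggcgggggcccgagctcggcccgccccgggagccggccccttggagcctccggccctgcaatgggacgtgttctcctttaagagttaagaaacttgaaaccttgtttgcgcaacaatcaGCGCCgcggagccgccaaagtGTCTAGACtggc
ID2: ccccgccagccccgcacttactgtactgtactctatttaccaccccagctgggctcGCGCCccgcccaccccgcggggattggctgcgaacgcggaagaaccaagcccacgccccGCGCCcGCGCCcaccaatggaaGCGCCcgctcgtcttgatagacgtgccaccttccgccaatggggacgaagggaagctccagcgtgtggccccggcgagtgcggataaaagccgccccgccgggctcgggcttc
ID1: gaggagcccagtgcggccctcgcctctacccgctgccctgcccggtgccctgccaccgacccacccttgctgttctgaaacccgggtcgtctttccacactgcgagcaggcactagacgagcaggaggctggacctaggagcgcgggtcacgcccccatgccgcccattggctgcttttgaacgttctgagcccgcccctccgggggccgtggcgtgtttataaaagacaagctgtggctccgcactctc
The SMAD6 window held 1 palindrome, 0 SMAD boxes and 3 GC-rich matches, the ID2 window 4 GC-rich matches and neither of the others, and the ID1 window none of the 3. Among 35116 human promoters of the same length 0.182% held the palindrome, 38% a SMAD box and 44.5% the GC-rich motif. The matches describe letters in these windows and were not tested as binding sites.

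Of the 9 members, 6 were measurable in these cells. A probe was called detected on an array when its detection p, which ranks it among negative control probes, was under 0.01, and was tested when this held on 3 or more arrays. This kept 10 of the 19 probes and SMAD6, SMAD7, SMAD3, ID1, ID2 and TGIF1. TGFB1, whose product is the founding ligand of the family, had a single probe that was not detected on any of the 24 arrays, at a lowest detection p of 0.294 and normalised log2 intensities of 4.52 to 4.83. ID3, the third inhibitor of differentiation, and SKIL, the SnoN repressor, were likewise detected on 0 of 24 arrays, with highest values of 5.47 and 5.50 and lowest detection p of 0.0208 and 0.0247. For these 3 genes the arrays give no comparison. TGIF1 had 7 probes, of which 2 were kept, 1 was detected on 1 array and 4 on none.

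**Figure D1:**
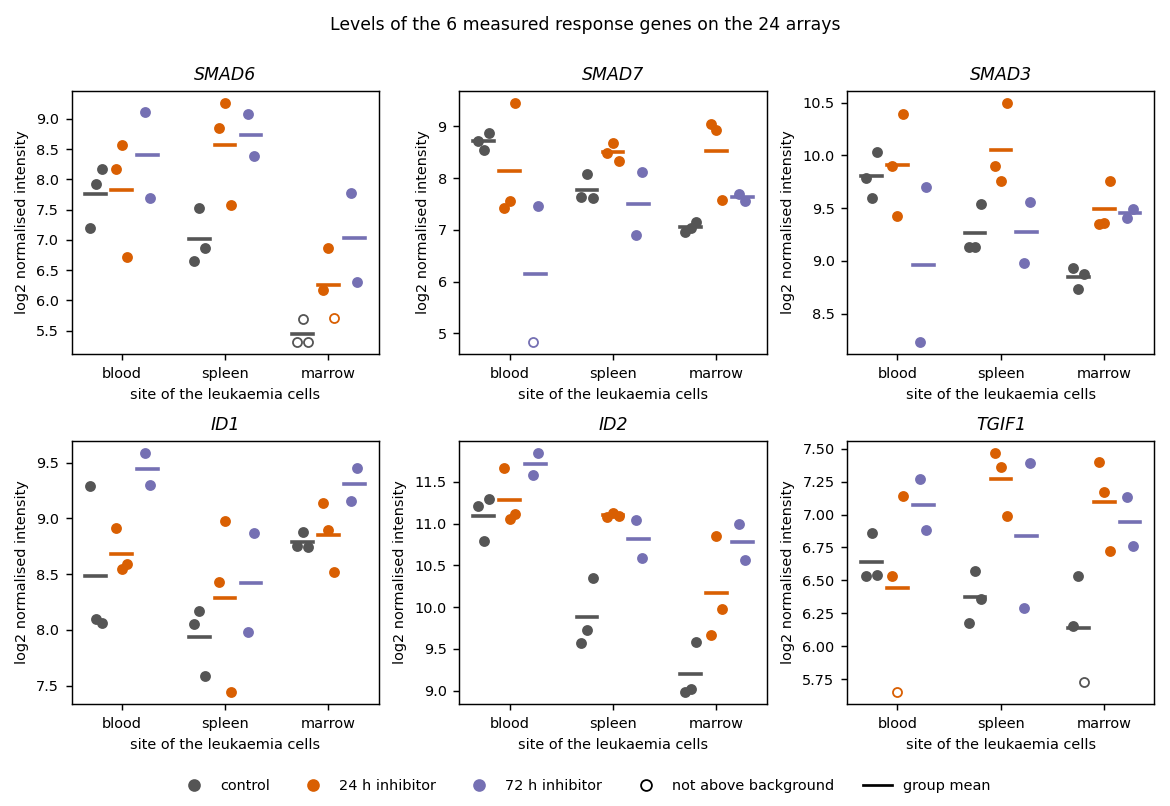
Normalised log2 intensity (vertical axes) of the 6 measurable genes on each of the 24 arrays, by site of the cells, with 1 point per mouse, horizontal bars for group means and open points for arrays where the probe was not above background. SMAD6 lay at 5.31 to 5.69 on the 3 control marrow arrays, below its other groups' means, ID2 lay at 8.98 to 9.58 there, and SMAD7 was not above background in the blood of mouse 8 (72 h).

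The arrays differed in detected probes, raw signal and correlation before any comparison. Arrays detected from 13066 to 15721 probes each, and raw median signals ran from 56.4 to 79.9. Arrays of the same control group correlated by 0.978 or more, while the lowest correlation within a group was 0.894, in 24 h blood. The blood arrays of mouse 8 and mouse 9 correlated by 0.934, and results that rest on the mouse 8 array are given with and without it. Levels below are normalised log2 intensities, with precision limited by the number of arrays, and differences carry the standard error from limma. P-values between sites are set against how much site differences vary from mouse to mouse, pooled over the 9 groups. Those of inhibitor against control come from a fit without a mouse term, in which arrays of 1 mouse count as independent.

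Blood cells held more SMAD6 and ID2 than marrow cells of the same mouse. In blood SMAD6 stood at 7.20, 7.93 and 8.17 in control mice, at 8.18, 8.57 and 6.72 after 24 h and at 9.11 and 7.69 after 72 h. In marrow it stood at 5.32, 5.69 and 5.31 in control mice, at 6.18, 6.87 and 5.71 after 24 h and at 7.77 and 6.30 after 72 h. The 3 control marrow values and the marrow value of mouse 3 were not above background, and each mouse had more in blood than in marrow, although the ranges over all mice overlapped. The difference was 1.75 ± 0.14 (3.37-fold, 8 of 8 mice, adjusted p = 1.07e-06 with limma). Of 6 tested members, SMAD6 and ID2 passed the threshold of 0.05 over all mice, where 48.1% of the 10351 tested genes passed and 21.4% were higher in blood. That share makes a call in this comparison common, and 10.0% of all genes were higher in blood in 8 of 8 mice. The difference for SMAD6 was 1.72 within the BeadChip that carried mice 1 to 4 and 1.96 within the other, and it passed under each of 17 alternative treatments of the data (adjusted p = 8.9e-07 to 0.00709). Because bulk RNA of sorted cells was read, more cells with the transcript and more transcript per cell cannot be told apart.

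ID2 differed between the same sites in the same direction. It stood in blood at 11.21, 10.79 and 11.29 in control mice, at 11.67, 11.06 and 11.12 after 24 h and at 11.58 and 11.85 after 72 h. Its marrow values were 8.98, 9.02 and 9.58 in control mice, 9.67, 10.85 and 9.98 after 24 h and 10.99 and 10.56 after 72 h. Control marrow held 3 of the 4 lowest of the 24 values, and the marrow values of mouse 2 and mouse 8 alone reached the range of control blood. The difference over all mice was 1.32 ± 0.16 (2.5-fold, 8 of 8 mice, adjusted p = 2.81e-05 with limma), with 1.67 and 1.34 within the 2 BeadChips.

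Within control mice 4 of the 6 tested members were higher in blood than in marrow, where 16.3% of all genes passed and 9.01% were higher. SMAD6 was at least 3.66-fold higher, a bound because no control marrow array detected it (means 7.77 and 5.44, adjusted p = 1.27e-05 with limma). ID2 was higher by 1.90 ± 0.26 (adjusted p = 0.000222). SMAD3 carries the TGF-beta signal into the nucleus. It stood at 9.79, 9.60 and 10.03 in control blood and at 8.93, 8.73 and 8.88 in control marrow. Its difference was 0.96 ± 0.21 (adjusted p = 0.00703, n = 3 mice, limma), which no longer passed without mouse 5 (1.00, adjusted p = 0.0566) or mouse 6 (0.86, 0.129), nor without a replicate block for the mouse (0.0548). SMAD7 stood at 8.72, 8.55 and 8.88 in control blood and at 6.95, 7.04 and 7.15 in control marrow. The SMAD7 difference of 1.67 ± 0.54 passed narrowly (adjusted p = 0.0488, limma) and was lost without mouse 1, 2, 4, 5 or 6 in turn (adjusted p = 0.0524 to 0.279) and without the replicate block (0.0626). Within BeadChip 1, which holds a single control mouse, no member passed in controls, with SMAD6 at 1.88 (adjusted p = 0.173) and ID2 at 2.22 (0.235).

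In mice treated for 24 h, where 36.3% of all genes passed, SMAD6 (1.57 ± 0.23, adjusted p = 0.00041) and ID2 (1.12 ± 0.26, adjusted p = 0.00526, limma) were higher in blood than in marrow in 3 of 3 mice. Without mouse 1 the ID2 difference was 0.68 (adjusted p = 0.103), and with the second ID2 probe it was 0.33 ± 0.32 (0.45). At 72 h, where 16.2% of all genes passed, SMAD6 passed (1.36 ± 0.28, 2 of 2 mice, adjusted p = 0.0077 with limma). That call was lost without mouse 8 (1.39, adjusted p = 0.0596), without its blood array alone (1.20, 0.0628) and without the replicate block (0.198). ID2 was 0.94 ± 0.32 higher at 72 h without passing (adjusted p = 0.0577). SMAD7 differed in sign between mice. It was 1.77, 1.50 and 1.73 higher in the blood of control mice 4, 5 and 6, against -1.63, -1.37 and 1.89 at 24 h and -2.87 and -0.10 at 72 h. Of the 24 h mice, mouse 3 alone had the sign of the controls. SMAD3 in blood minus marrow was 0.86, 0.87 and 1.15 in control mice, 0.55, 0.07 and 0.63 at 24 h and -1.18 and 0.21 at 72 h, so that mouse 8 alone was negative. ID1 and TGIF1 did not pass in any of the comparisons of blood with marrow.

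**Figure D2:**
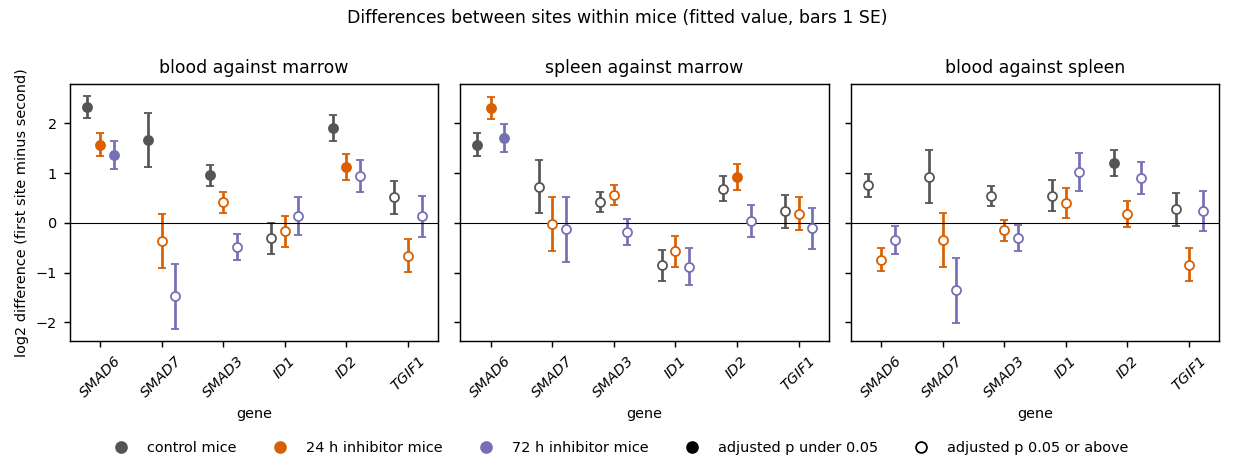
Fitted log2 differences between sites within mice (vertical axis, bars 1 standard error from limma) for the 6 measurable genes, by treatment group, with filled points where the adjusted p was under 0.05. SMAD6 was above 0 in all groups in the panels of blood and of spleen against marrow, where its control points, set against marrow that did not detect it, stand for at least 3.66-fold and 2.16-fold, and SMAD7 lay at 1.67, -0.37 and -1.48 for blood against marrow in control, 24 h and 72 h mice.

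Spleen cells also held more SMAD6 than marrow cells, and less ID1. In spleen SMAD6 stood at 6.66, 7.52 and 6.87 in control mice, at 8.85, 9.27 and 7.57 after 24 h and at 9.09 and 8.38 after 72 h, above the marrow value of the same animal each time. The difference was 1.86 ± 0.14 (3.63-fold, 8 of 8 mice, adjusted p = 5.51e-06 with limma), where 6.45% of all genes were higher in spleen in every mouse. It measured 1.82 and 1.69 within the 2 BeadChips and passed under 17 of 17 alternatives. Over all mice 3 of the 6 tested members passed, against 10.8% of all genes. ID2 was 0.55 ± 0.16 higher (8 of 8 mice, adjusted p = 0.0413), a call that held without mouse 2 and was lost without each of the other mice in turn (adjusted p = 0.0716 to 0.124) and without the replicate block (0.0774).

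ID1, the best known BMP target of the ID family, was lower in spleen. It measured 8.05, 8.17 and 7.59 in control spleen, 8.43, 8.98 and 7.44 after 24 h and 7.98 and 8.87 after 72 h. In marrow it measured 8.75, 8.88 and 8.74 in control mice, 9.14, 8.90 and 8.52 after 24 h and 9.16 and 9.45 after 72 h. The spleen of mouse 2 was the exception to the direction. The difference was -0.77 ± 0.19 (7 of 8 mice, adjusted p = 0.0191 with limma). Without mouse 1, 6 or 8 it was -0.74, -0.72 and -0.67 and no longer passed (adjusted p = 0.0664, 0.0723 and 0.0788), and within the 2 BeadChips it was -0.64 and -0.90 without passing.

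Within single treatment groups SMAD6 was the member that passed in spleen against marrow at each time. In controls, where 0.560% of all genes passed, it was at least 2.16-fold higher (adjusted p = 0.00327 with limma), lost without mouse 5 (1.44, adjusted p = 0.137) and without the replicate block (0.662). In 24 h mice, where 13.7% passed, SMAD6 was 2.31 ± 0.23 higher (4.95-fold, adjusted p = 0.000122) and ID2 0.93 ± 0.26 higher (adjusted p = 0.0284). The ID2 call there was lost without mouse 1 (0.70, adjusted p = 0.184), 3 (0.84, 0.128), 4, 5 or 6 (0.93 each, 0.0507, 0.0576 and 0.0514) and without the replicate block (0.0514). In 72 h mice, where 0.242% passed, SMAD6 was 1.70 ± 0.28 higher (2 of 2 mice, adjusted p = 0.0255), lost without mouse 4 or 5 (1.70 each, adjusted p = 0.0699 and 0.0804), mouse 8 (2.08, 0.0597) or mouse 9 (1.32, 0.13) and without the replicate block (0.652).

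Between blood and spleen the 2 measured ID genes differed, and SMAD6 did not pass. For ID2 this held with the first of its 2 kept probes, while the second gave 0.02 ± 0.20 (adjusted p = 0.945 with limma). ID2 stood in spleen at 9.57, 9.73 and 10.35 in control mice, 11.08, 11.13 and 11.09 after 24 h and 11.04 and 10.59 after 72 h, so that in 24 h mice its spleen values lay among the blood values. Over all mice ID2 was 0.76 ± 0.16 higher in blood (7 of 8 mice, adjusted p = 0.00688 with limma) and ID1 0.65 ± 0.19 higher (6 of 8 mice, adjusted p = 0.0266). ID1 in blood measured 9.29, 8.10 and 8.06 in control mice, 8.91, 8.55 and 8.59 after 24 h and 9.59 and 9.30 after 72 h. These were 2 of the 6 tested members, against 21.9% of all genes. Within the 2 BeadChips ID2 measured 0.91 (adjusted p = 0.521) and 0.95 (0.0393), and ID1 0.82 (0.533) and 0.61 (0.142). The ID1 call was lost without mouse 1 (0.64, adjusted p = 0.0724), 3 (0.53, 0.0552), 4 (0.54, 0.077), 6 (0.67, 0.0748) or 8 (0.46, 0.138), without the blood array of mouse 8 (0.51, 0.0967) and without the replicate block (0.064). SMAD6 differed by -0.11 ± 0.14 (adjusted p = 0.612).

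Control mice alone gave ID2 higher in blood than in spleen by 1.21 ± 0.26 (3 of 3 mice, adjusted p = 0.0167 with limma), where 5.73% of all genes passed. It was lost without mouse 4 (1.00, adjusted p = 0.174), 5 (1.29, 0.0954) or 6 (1.35, 0.179). The second ID2 probe gave 0.59 ± 0.32 here (adjusted p = 0.324 with limma). In 24 h mice, where 1.74% of all genes passed, and in 72 h mice, where 3.80% did, 0 of 6 members passed with limma. Each time 2 had an unadjusted p under 0.05, with no count over all genes beside it. SMAD6 was -0.74 ± 0.23 in 24 h mice (lower in blood in 3 of 3, adjusted p = 0.0745) and 0.76 ± 0.23 in control mice (higher in 3 of 3, adjusted p = 0.0668).

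After 24 h of inhibitor ID2 was higher than in controls in spleen, and no member passed in marrow or blood. The 3 spleen values of ID2 after 24 h, 11.08 to 11.13, lay above the 3 control values, 9.57 to 10.35, as for 18.9% of all genes. The difference was 1.22 ± 0.28 (2.33-fold, adjusted p = 0.00946 with limma). It was 1 of 6 tested members, against 12.5% of all genes. Without mouse 4 it was 1.06 (adjusted p = 0.0874) and without mouse 5 it was 1.14 (0.0631), and within BeadChip 1, with a single control mouse, 1.53 (0.24). SMAD6 was 1.55 ± 0.52 above controls in spleen without passing (adjusted p = 0.0569). With the mouse as a random replicate block its adjusted p was 0.0295, and without mouse 3, whose 24 h spleen value of 7.57 lay nearest the controls, it was 2.05 (0.00925).

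TGIF1, a homeobox repressor that binds SMAD complexes, did not pass in any comparison. It stood at 7.47, 7.36 and 6.99 in 24 h spleen, against 6.18, 6.57 and 6.36 in control spleen, with no overlap, where 18.9% of all genes were higher without overlap. The difference was 0.91 ± 0.33 (adjusted p = 0.0736 with limma), and 1.05 (0.0375) without mouse 3. In marrow it measured 7.40, 7.17 and 6.72 after 24 h, against 6.15, 6.53 and 5.73 in controls, the last not above background. In blood it measured 6.53, 5.65 and 7.14 after 24 h, the second not above background, against 6.53, 6.86 and 6.54 in controls. The 72 h values of TGIF1 were 7.27 and 6.88 in blood, 6.29 and 7.39 in spleen and 7.13 and 6.76 in marrow.

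In marrow 0.213% of all genes passed at 24 h and 0 of 6 members did with limma. An unadjusted p under 0.05 was reached by 3 members, with no count over all genes beside it. SMAD7 stood at 9.05, 8.93 and 7.57 in 24 h marrow, against 6.95, 7.04 and 7.15 in control marrow, without overlap. Its difference was 1.47 ± 0.55 (adjusted p = 0.379), and ID2 differed by 0.97 ± 0.28 (0.222) and TGIF1 by 0.96 ± 0.33 (0.324). Groups without overlap and higher after 24 h made up 16.7% of all genes in marrow. In blood 0.0386% of all genes passed and 0 of 6 members did with limma, while 0 had an unadjusted p under 0.05. Without mouse 3 the share of all genes was 16.1%. The 24 h blood values of SMAD7 were 7.42, 7.55 and 9.46, those of mice 1 and 2 below the control range and that of mouse 3 above it.

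After 72 h, with 2 treated mice, ID2 was higher than in controls in marrow and SMAD7 lower in blood. For ID2 this rested on its first kept probe, while the second gave 0.54 ± 0.36 (adjusted p = 0.404 with limma). ID2 in marrow stood at 10.99 and 10.56, against 8.98, 9.02 and 9.58 in controls (1.59 ± 0.32, 3-fold, adjusted p = 0.0132 with limma), 1 of 6 tested members, against 2.60% of all genes. The groups did not overlap, as for 29.5% of all genes. Without mouse 4 or 5 it was 1.48 and 1.50 (adjusted p = 0.103 each) and without mouse 8 it was 1.37 (0.136), and within BeadChip 2 it was 1.48 (0.0893). SMAD6 in marrow differed by at least 2.2-fold without passing (means 7.04 and 5.44, adjusted p = 0.122). In spleen 0 of 6 members passed with limma, where 0.860% of all genes did. An unadjusted p under 0.05, with no count over all genes beside it, was reached by 2 members. These were SMAD6 (1.72 ± 0.59, adjusted p = 0.107) and ID2 (0.93 ± 0.32, 0.107). The share of all genes that passed was 9.95% without mouse 3 and 0% without mouse 4. Without mouse 9, which leaves 1 treated mouse, the differences were 2.08 for SMAD6 and 1.16 for ID2.

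SMAD7 in 72 h blood rested on mouse 8. It stood at 4.83, not above background, in mouse 8 and at 7.47 in mouse 9, against 8.72, 8.55 and 8.88 in control blood. The difference was -2.57 ± 0.62 (adjusted p = 0.00645 with limma), 1 of 6 tested members, against 33.8% of all genes, of which the lower ones made up 20.0%. Both 72 h values lay below the controls, as for 30.9% of all genes. Without the blood array of mouse 8 it was -1.25 ± 0.62 (adjusted p = 0.194), without mouse 8 altogether -1.25 (0.175), and without mouse 9 it was -3.89 (0.000307). SMAD3 measured 8.23 and 9.70 in 72 h blood and differed by -0.84 ± 0.35 (adjusted p = 0.0646). Without the blood array of mouse 8 this was -0.11 ± 0.35 (0.867), and without mouse 9 it was -1.58 ± 0.34 (0.00262). ID1, at 9.59 and 9.30, lay above the 3 control values, as did 25.9% of all genes, by 0.96 ± 0.39 (adjusted p = 0.0648), by 1.10 with the BeadChip as a block (0.0434) and by 0.81 ± 0.50 without the mouse 8 array (0.29). Without the mouse 8 array 4.39% of all genes passed in this comparison.

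**Figure D3:**
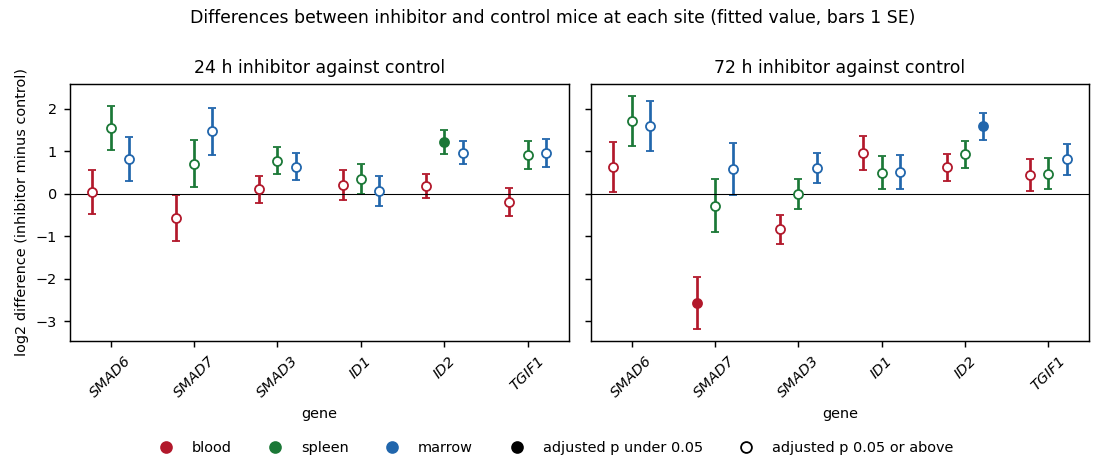
Fitted log2 differences between inhibitor and control mice (vertical axis, bars 1 standard error from limma) in blood, spleen and marrow, after 24 h and after 72 h, with filled points where the adjusted p was under 0.05. The filled points are ID2 at 1.22 (24 h spleen), ID2 at 1.59 (72 h marrow) and SMAD7 at -2.57 (72 h blood). The 72 h marrow point rests on the first ID2 probe, and the SMAD7 point on mouse 8.

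Whether the site differences depended on treatment was tested directly. At 24 h 0 of 6 members passed the limma F test over both differences from marrow, where 0.299% of all genes passed. An unadjusted p under 0.05 was reached by 3 members, with no count over all genes beside it. SMAD6 came nearest (adjusted p = 0.0944), but no control marrow array detected it, so its changes against control have no fixed size. Without mouse 3 the F test passed for SMAD6, SMAD7 and TGIF1 (adjusted p = 0.0375, 0.0181 and 0.0323). At 72 h again 0 of 6 passed, where 0.821% of all genes did. Here too 3 members had an unadjusted p under 0.05, with no count over all genes beside it. SMAD3 had an adjusted p of 0.113 in the F test, and its blood-marrow difference taken alone changed by -1.45 ± 0.33, which passed (0.0478). Without the mouse 8 blood array that change was -0.88 ± 0.30 (0.232). SMAD7 had an F test adjusted p of 0.156 and a change of -3.15 ± 0.86 (0.075), and -2.10 ± 0.93 (0.337) without that array. Without mouse 9, which leaves 1 mouse at 72 h, the changes were -2.14 for SMAD3 and -4.54 for SMAD7. Without mouse 3 the F test passed for SMAD7 (adjusted p = 0.0412 with limma).

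Ordered by group mean, the levels of neighbouring groups mostly overlapped. For SMAD6 control marrow lay lowest, with 0 of 3 arrays above background, and the means then ran from 6.26 in 24 h marrow through overlapping groups to 8.73 in 72 h spleen. Control marrow and 24 h marrow cannot be set apart, since the lowest 24 h value was not above background either. For ID2 the order ran from control marrow (9.19) over control spleen (9.88), 24 h marrow (10.17), 72 h marrow (10.78) and 72 h spleen (10.82) to control blood (11.09), 24 h spleen (11.10), 24 h blood (11.28) and 72 h blood (11.72). Each of these neighbours overlapped the next, as did those of SMAD7, SMAD3 and TGIF1. SMAD7 ran from 6.15 in 72 h blood to 8.72 in control blood, the widest distance between groups of 1 site. SMAD3 ran from 8.85 in control marrow to 10.05 in 24 h spleen, and TGIF1 from 6.14 in control marrow to 7.27 in 24 h spleen. For ID1 the means ran from control spleen (7.94) to 72 h blood (9.44), and 72 h marrow (9.30) did not overlap its lower neighbour, 24 h marrow (8.85). SMAD3 values not yet given were 9.90, 9.43 and 10.39 in 24 h blood, 9.90, 9.76 and 10.50 in 24 h spleen and 9.35, 9.36 and 9.76 in 24 h marrow. Mouse 3 held the highest SMAD3 value of its group at all 3 sites.

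A second kept probe checked 4 genes, and for ID2 the probes disagreed in some comparisons. The probes of ID2 correlated by 0.539 over 24 arrays and by 0.779 without the 72 h arrays, as a description. In 72 h blood the first probe read 11.58 and 11.85 and the second 9.83 and 10.59. With the second probe ID2 was higher in blood than in marrow by 0.59 ± 0.20 (adjusted p = 0.0276 with limma over 17116 probes) and in 24 h spleen than in control spleen by 1.07 ± 0.32 (0.0426). For blood against spleen it gave 0.02 ± 0.20 (adjusted p = 0.945), and for 72 h marrow against control marrow 0.54 ± 0.36 (0.404), so these calls rest on the first probe. The same holds for blood against marrow in 24 h mice (0.33 ± 0.32, adjusted p = 0.45) and blood against spleen in control mice (0.59 ± 0.32, 0.324). For spleen against marrow the second probe gave differences close to those of the first without passing. These were 0.57 ± 0.20 (adjusted p = 0.0976 with limma), against 0.55, over all mice and 0.89 ± 0.32 (0.0911), against 0.93, in 24 h mice. In control mice the second probe was higher in blood than in marrow (1.35 ± 0.32, 0.0133). SMAD7's probes correlated by 0.797, and the second, detected on 8 arrays, gave 1.30 ± 0.40 for control blood against control marrow (adjusted p = 0.0473) and put 72 h blood against control blood at -0.97 ± 0.42 (adjusted p = 0.0819). ID1's probes correlated by 0.687, and the second gave -0.76 ± 0.24 for spleen against marrow (adjusted p = 0.0694) and 0.85 ± 0.24 for blood against spleen (0.0264). For 72 h blood against control blood the second ID1 probe gave 0.06 ± 0.43 (adjusted p = 0.931 with limma), against 0.96 with the first. TGIF1's second probe, detected on 5 arrays, correlated with the first by 0.74. It gave 0.23 ± 0.30 for 24 h marrow against control marrow (adjusted p = 0.939 with limma) and 0.79 ± 0.30 in spleen (0.106).

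**Figure D4:**
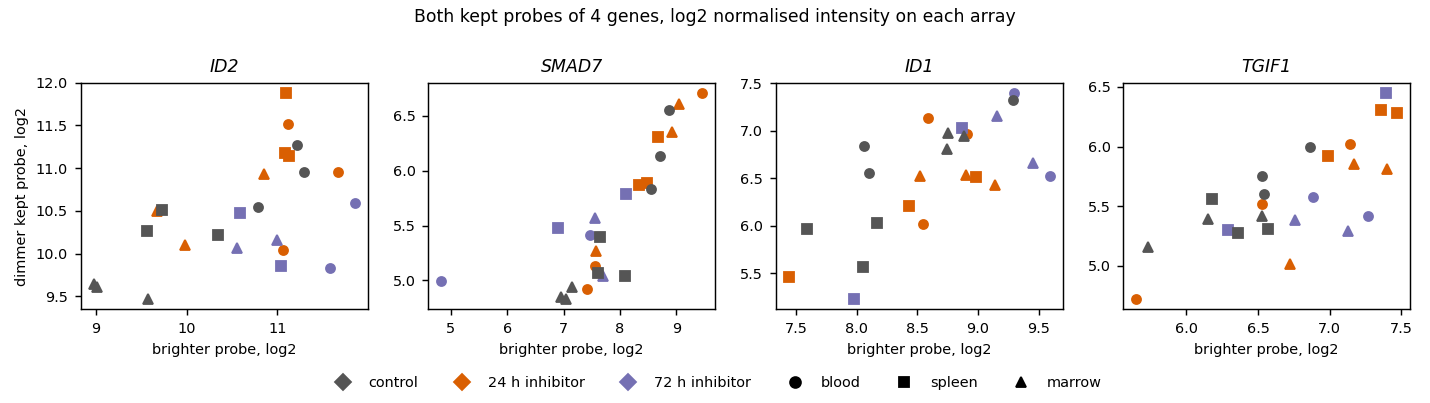
Log2 normalised intensity of the probe that stands for each gene (horizontal) against the other kept probe (vertical) on each of the 24 arrays, with colours for treatment and shapes for site. For ID2 the correlation is 0.539 with the 72 h arrays and 0.779 without them.

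Across the 24 arrays the members did not follow 1 pattern. SMAD6 correlated with ID2 by 0.753 and SMAD7 with SMAD3 by 0.74, while SMAD6 and SMAD7, the 2 inhibitory SMADs, correlated by -0.0419. These arrays share mice, sites and BeadChips, so the values are descriptions. The genes most like SMAD6 were CDC42EP4, which binds the GTPase CDC42 (0.925), and CCM2, a scaffold protein (0.917). Most like ID2 were PLEC, the cytoskeletal linker plectin (0.93), and RHOC, a small GTPase (0.927). YWHAH (0.893) and PHTF1 (0.89) followed SMAD7 most closely, and OLFML2A and PECAM1 (0.937 each) SMAD3. For ID1 these were CDHR1 (0.681) and HBEGF (0.672), and for TGIF1 EPAS1 (0.781) and APOE (0.732).

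Other genes of the pathway were taken from lists of ligands, receptors, signalling SMADs with their DNA partners, inhibitors, further targets and E proteins. The lists were chosen with earlier results of these data known, so their shares beside those of all genes are descriptions only. Of 103 listed genes 99 were on the array and 59 were tested. Over all mice 19 were higher and 11 lower in blood than in marrow, 50.8% of the 59, against 48.1% of all genes, with a median difference of 0.12, against -0.03 over all genes. Among DNA partners RUNX3, a transcription factor that binds SMADs, was higher by 1.83 ± 0.11 (8 of 8 mice, adjusted p = 1.54e-07 with limma), and the BMP signal carrier SMAD9 by 0.89 ± 0.18 (0.00109). SMAD2, the partner of SMAD3 on the TGF-beta side, was lower in 8 of 8 mice (-0.55 ± 0.11, 0.00115). RUNX2, of the same list as RUNX3, was lower on average (-0.62 ± 0.16, 0.00577), though higher in blood in 3 of 8 mice. The further targets had 8 of 13 higher and 1 lower, among them LTB, a lymphotoxin subunit (1.88 ± 0.20), and the cell cycle inhibitor CDKN1A (1.37 ± 0.16). Of 8 receptors 2 were higher and 1 lower: the coreceptor endoglin, ENG, detected on 8 of 8 blood and 0 of 8 marrow arrays, was at least 1.5-fold higher, and TGFBR1 was lower (-0.56 ± 0.17). Of the 16 inhibitors 4 were higher, BCL6 at 1.40 ± 0.18 among them, and 4 lower. Of 3 E proteins, the partners of the ID proteins, TCF4 was higher (0.61 ± 0.17) and TCF12 lower (-0.78 ± 0.21). The 9 tested ligands and activators had 2 higher and 0 lower, of which LTBP3, a binder of latent TGF-beta, stood at 0.84 ± 0.12.

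In spleen against marrow 8 of the 59 were higher and 5 lower, 22% against 10.8% of all genes. RUNX3 (1.92 ± 0.11), CDKN1A (1.20 ± 0.16) and BCL6 (0.97 ± 0.18) were higher in 8 of 8 mice. FST, the activin and BMP trap follistatin, was lower in 8 of 8 mice (-1.38 ± 0.23, adjusted p = 0.00166), and TGFBI, a TGF-beta induced matrix protein, was not above background on any spleen array and at least 1.28-fold lower. In spleen after 24 h 10 were higher and 2 lower than in controls, 20.3% against 12.5% of all genes. The receptor TGFBR2 (1.22 ± 0.28, adjusted p = 0.00943), CDKN1A (1.62 ± 0.32) and the cell cycle inhibitor CDKN2B (1.47 ± 0.42, detected on 1 of 3 control arrays) were higher, and GDF11 was lower (-1.31 ± 0.32). These counts were 3 and 0 without mouse 1 (5.08% against 4.38% of all genes) and 1 and 0 without mouse 4 (1.69% against 3.28%). They were 4 and 2 without mouse 5 (10.2% against 4.17%) and 6 and 0 without mouse 6 (10.2% against 4.54%).

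In 72 h blood 6 of the 59 were higher and 20 lower than in controls, 44.1% against 33.8% of all genes. Of 10 signalling SMADs and partners 7 were lower, among them the shared SMAD4 (-2.38 ± 0.50, adjusted p = 0.00358 with limma), RUNX2 (-1.88 ± 0.34) and the coactivator EP300, at least 2.3-fold lower. The BMP receptors ACVR1 (-2.14 ± 0.43) and BMPR2 (-1.53 ± 0.31), each detected on 1 of 2 72 h blood arrays, were also lower. ACVRL1 was higher (1.31 ± 0.47). EP300 was detected on 0 of 2 72 h blood arrays, so its difference is a bound. Without the blood array of mouse 8 the 72 h blood group was mouse 9 alone. The differences were then -1.76 for RUNX2, -1.92 for BMPR2, -2.05 for SMAD4, -1.14 for ACVR1 and 0.83 for ACVRL1. Over the list the counts without that array were 0 higher and 5 lower, 8.47% against 4.39% of all genes. They were 0 and 10 without mouse 4 (16.9% against 16.2%) and 0 and 7 without mouse 5 (11.9% against 13.3%). In 72 h marrow 3 were higher, RUNX3, LTBP3 and NRROS, and SMAD4 was lower (-1.97 ± 0.50, adjusted p = 0.0416), 6.78% of the list against 2.60% of all genes. Without mouse 1, 4, 5 or 6 in turn 0 of the 59 passed there.

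Markers of the line and of other cells were read beside these results. MEIS1, a homeobox gene of the leukaemia, was detected on 24 of 24 arrays, SPI1 on 23, ANPEP on 21 and PTPRC, which encodes the CD45 used in the sort, on 13, while CD33 and HOXA9 had no named probe here. SMAD6, ID1 and ENG are also known from endothelial cells. Of 12 endothelial and stromal markers 10 were detected on no array, CDH5, KDR, TEK and VWF among them. The probes are for human genes and the host is a mouse, so undetected markers, here and below, do not tell whether host cells were present. The summed linear level of that list was 1325 to 1636 in control blood, 907 to 1182 in control spleen and 772 to 865 in control marrow, and 1408 to 2605 in 24 h spleen. The sum of the 4 line markers was 1053 to 1401 in control blood, 896 to 984 in control spleen and 720 to 847 in control marrow. Of 14 T and NK cell markers 8 were detected on no array, CD3D, CD3E and CD3G included. Their summed level was 4753 to 5680 in control blood, 2170 to 2545 in control spleen and 1189 to 1438 in control marrow. In controls the endothelial, line and T and NK sums ran in the order of SMAD6 and ID2. On each control array 1 of the 12 endothelial and stromal markers and 4 to 5 of the 14 T and NK markers were detected, so these sums rest on few genes. PECAM1 and PDGFRB were the endothelial and stromal markers outside the 10 undetected ones, and PECAM1 measured log2 8.51 to 11.15 over the 24 arrays. The T and NK sum was 6227 to 10461 in 24 h spleen. Of 13 erythroid markers 9 were detected on no array. Their sum did not follow that order, at 8580 to 13865 in control marrow, 17676 to 20730 in control spleen and 1570 to 8014 in control blood. It was 19830 to 21698 in 72 h marrow and 18147 to 20546 in 72 h blood. Of 7 B cell and 8 platelet markers 4 and 5 were detected on no array, with sums of 237 to 387 and 292 to 571 over the sites. The sum of 4 small RNA genes was 8944 to 68896 in blood, 1453 to 16365 in spleen and 1334 to 3695 in marrow. The part of these markers in the site and treatment differences was not tested.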

How the data were processed

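RNA of sorted cells was amplified in 2 rounds and hybridised to Illumina HT-12 v4 arrays, per the labels' protocols. The deposited intensities are linear GenomeStudio signals per probe without background subtraction, per the submitters' processing notes and file headers, with a deposited detection p-value per probe. Its version is not given in the sources used here. The deposited series matrix holds the same intensities less 1 constant per array (within 0.02).

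From these, limma 3.58.1 (R 4.3.3) applied neqc: normexp background correction by detection p, an offset of 16, quantile normalisation and log2. Probes with a detection p under 0.01 on 3 or more arrays were kept (17116), and the brightest probe stood for each of 10351 genes. Of all probes, 30113 had 1 symbol in the platform listing, 8 several and 17110 none. Site comparisons and F tests used mouse as a block, and inhibitor was set against control at each site in a fit of 9 group means. P-values from limma are two-sided with Benjamini-Hochberg adjustment over all genes in each of 18 comparisons and 2 F tests. A fold against a group below background is a bound, set at the dimmest detected signal. Listed mice pair sites through the series design; arrays of 1 mouse deviated together (mean correlation 0.284 over 24 pairs, 0.0149 to 0.694), against -0.162 over 42 pairs of different mice. BeadChip 1 carried mice 1, 2, 3 and 4, BeadChip 2 mice 5, 6, 8 and 9.

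The closing section gives 20 alternatives. Named pathway genes are at most 4 called genes per list and comparison with the lowest p. Members and lists were chosen with earlier results of these data known.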

Additional observations from a re-analysis of the deposited data

Results flagged for a closer look

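Per-mouse differences between sites were screened for 1 mouse far from the other 7, in 18 sets of 8 mice. Chance marks about 1 in 20 where the 8 mice are of 1 kind and the sets are independent. Here each set pooled control, 24 h and 72 h mice, and the site differences of a gene share values, so that rate is a rough guide. SMAD3 in blood minus marrow was -1.18 in mouse 8 (72 h), against 0.07 to 1.15 in the other mice. ID1 in spleen minus marrow was 0.09 in mouse 2 (24 h), the single positive value. TGIF1 in spleen minus marrow was -0.83 in mouse 8, the single negative value. Of these, the SMAD3 value includes the mouse 8 blood array, and the cause of each was not tested.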

How the results depend on the processing

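Under 20 alternatives 2052 member values were recomputed: 1894 stayed on their side of the threshold, of which 1788 kept their direction and 106 changed sign without passing under either setting, 108 no longer passed, 50 newly passed and 0 called values changed sign. SMAD6 in blood against marrow and in spleen against marrow over all mice, and ID2 in blood against marrow over all mice, passed under every alternative run. Of 352 counts of members past the threshold 114 moved, and the cause was not tested except where fewer members or mice were left by construction.

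Without the replicate block for the mouse, the counts of members past the threshold were 2 (4 with it) for blood against marrow in control mice and 0 (1) at 72 h, 0 (1), 1 (2) and 0 (1) for spleen against marrow in control, 24 h and 72 h mice, and 1 (2) for blood against spleen over all mice. With the mouse as a random replicate block (consensus correlation 0.27) 2 (1 without it) passed in 24 h spleen and 2 (1) in 72 h blood against control, and with the BeadChip as a block 2 in 72 h blood. Within BeadChip 1, with fewer mice, 0 passed for blood against marrow in controls, 1 (3), 0 and 1 for spleen against marrow over all, control and 24 h mice, 0 and 0 for blood against spleen over all and control mice, and 0 in 24 h spleen. Within BeadChip 2 these were 2 for blood against marrow in controls, 1, 0 and 0 for spleen against marrow over all, control and 72 h mice, 1 and 0 for blood against spleen over all and control mice, 0 (1) in 72 h marrow and 2 in 72 h blood. An offset of 50 gave 2 for blood against marrow at 72 h and 2 in 24 h spleen.

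Median scaling, and likewise the unscaled series matrix, gave 2, 1 and 0 for blood against marrow in control, 24 h and 72 h mice, 1 and 0 for spleen against marrow at 24 h and 72 h, 0 and 0 for blood against spleen over all and control mice, 0 in 24 h spleen and 0 in 72 h marrow. The series matrix also gave 1 and 0 for spleen against marrow over all and control mice. The median of all genes then lay at -0.13 and -0.20 for blood against marrow, 0.12 and 0.16 for spleen against marrow and -0.27 and -0.37 for blood against spleen (median scaling first, over all mice). Without the filter 0 passed for spleen against marrow at 72 h, 1 for blood against spleen and 2 in 24 h spleen. Probes detected on all 24 arrays left SMAD3, ID1 and ID2, with 1, 2 and 1 for blood against marrow over all, control and 24 h mice, 0, 1 and 0 for spleen against marrow in control, 24 h and 72 h mice, and 0 in 72 h blood. The mean of a gene's probes gave 1 and 0 for blood against spleen over all and control mice. Without the blood array of mouse 8 there were 0 for blood against marrow at 72 h, 1 and 2 for blood against spleen over all and control mice, 3 in 24 h spleen and 0 in 72 h blood.

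Leaving out mice or that array in turn gave 2 to 3, 2 to 4, 1 to 4 and 0 to 3 members for blood against marrow over all, control, 24 h and 72 h mice, 1 to 3, 0 to 1, 1 to 3 and 0 to 1 for spleen against marrow, and 1 to 2, 0 to 3, 0 to 1 and 0 to 0 for blood against spleen. For 24 h against control these were 0 to 0 in marrow, 0 to 3 in spleen and 0 to 0 in blood, for 72 h against control 0 to 2 in marrow, 0 to 2 in spleen and 0 to 3 in blood, and for the F tests 0 to 3 at 24 h and 0 to 2 at 72 h. Signal near background limits SMAD6 and TGIF1 in marrow and leaves ID3, SKIL and TGFB1 unmeasured.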
